A study of Mus musculus with 3 samples.

Results

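Collagen chain genes encode the alpha chains that wind in threes into the triple helices of the extracellular matrix. They were taken as every gene whose symbol is Col, a type number, the letter a and a chain number. Of the 15503 genes in the deposited tables, 34 matched, and 32 of these occur in all 3 tables. By structural type they were 8 fibrillar, 8 basement membrane, 7 fibril-associated, 4 microfibrillar and 2 transmembrane chains, with 5 of other types. Another 10 genes of this naming pattern in the GENCODE M21 annotation (Col2a1, Col6a4, Col6a5, Col9a1, Col10a1, Col11a1, Col17a1, Col19a1, Col24a1 and Col25a1) are in none of the tables and have no value here.

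The samples were left ventricles of C57BL6J mice, with RNA of 3 mice pooled into 1 library for each of 3 genotypes. The pools are labelled Egln1Tie2Cre, Egln1/Hif2aTie2Cre and Egln1 floxed, called Egln1_Tie2Cre, Egln1_Hif2a_Tie2Cre and Egln1_floxed here, and the series' design text calls the last one wild type. Egln1 encodes PHD2, the oxygen sensor that marks hypoxia-inducible factors for degradation, and Hif2a is the protein made from Epas1. The Tie2 promoter, which drives the Cre recombinase, works in endothelium and in blood-forming cells. Whole ventricle also holds cells in which it is not active. Which cells had lost these genes, fibroblasts among them, was not measured. The sources used here give neither age nor sex of the mice. The series' title concerns cardiac hypertrophy and fibrosis after loss of endothelial PHD2, and collagen chains are the main structural components of fibrotic matrix.

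Fibrillar collagens form the tensile fibres between heart muscle cells, made mainly by fibroblasts. Fibril-associated collagens coat those fibres, and type VI collagen forms beaded microfilaments around cells. Basement membrane collagens form the sheets that surround each muscle cell and each capillary, and endothelial cells and pericytes are among their sources. With 1 pooled library per genotype, the spread between mice is unknown, and no difference below has a replicate check or a p-value. Levels are given in FPKM, a unit that divides sequenced fragments by the length of the transcript and by the size of the library. The depth behind them is unknown.

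Library-wide facts that touch these values are few. Egln1 had 95.7 FPKM in the Egln1_Tie2Cre pool, 129.0 in the pool labelled Egln1_Hif2a_Tie2Cre and 129.5 in the floxed pool, and Epas1 had 65.0, 54.5 and 77.4 FPKM in the same order. Egln1 of the pool labelled Egln1_Hif2a_Tie2Cre was about equal to that of the floxed pool (1.004-fold lower), against the Egln1 part of its label, and directions given for that pool rest on the label. Heart muscle cells also express both genes, so whole-tissue levels test an endothelial deletion poorly. Cardiomyocyte markers were abundant in all 3 pools, at 26719, 27784 and 27640 summed FPKM over 5 of the 6 markers. Ryr2 is not in the sum, as it had no value in Egln1_Tie2Cre (85.8 FPKM in labelled Egln1_Hif2a_Tie2Cre, 145.2 in floxed). Of the 5, 2 were above floxed in Egln1_Tie2Cre and 3 in labelled Egln1_Hif2a_Tie2Cre. Myh6 had 3645, 4600 and 6691 FPKM, whereas Tnni3 had 5816, 6555 and 4491. Myh1, Myh4 and Actn3 of skeletal muscle are not listed in any table. The other 3 skeletal muscle markers were above floxed in both other pools: Mylpf had 1.48, 1.61 and 1.12 FPKM, Tnnt3 had 0.444, 0.797 and 0.375, and Ckm, which heart muscle also makes, had 1455, 1513 and 1360. Collagen chains share little sequence with other genes: 29 of the 34 had no near-identical stretch in annotated transcripts of other genes. The other 5 had at most 7.68% of their length in such a stretch. For Col3a1, Col4a3, Col5a1 and Col9a3 these stretches matched genes that overlap them at the same locus, and for Col6a6 the match was Col6a5. Whether reads were counted by strand is not stated, and the largest overlaps with genes on the opposite strand were 6.07% of the exon bases of Col9a3 and 5.65% of those of Col4a3.

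Start sites are shown for the 3 chains that were at least 1.5-fold apart between the Egln1_Tie2Cre and floxed pools (Col27a1, Col18a1 and Col6a2) and for the facing starts of Col4a1 and Col4a2, the most abundant chains. The sequences are RefSeq's for GRCm38.p6, read 5′ to 3′ on the strand named. For the first 3 they are the 250 bases before the start that lies farthest upstream, and capitals mark GC boxes (GGGCGG on either strand). For the facing pair, capitals mark the 22 bases from one start to the other, annotated as transcribed by both genes in opposite directions.
Col27a1, chr4:63215162-63215411, plus strand: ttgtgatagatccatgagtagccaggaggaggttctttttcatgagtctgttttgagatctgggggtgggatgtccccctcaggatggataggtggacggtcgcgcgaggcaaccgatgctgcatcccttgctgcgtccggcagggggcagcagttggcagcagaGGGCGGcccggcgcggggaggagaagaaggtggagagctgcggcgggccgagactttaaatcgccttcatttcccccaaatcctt
Col18a1, chr10:77166531-77166780, minus strand: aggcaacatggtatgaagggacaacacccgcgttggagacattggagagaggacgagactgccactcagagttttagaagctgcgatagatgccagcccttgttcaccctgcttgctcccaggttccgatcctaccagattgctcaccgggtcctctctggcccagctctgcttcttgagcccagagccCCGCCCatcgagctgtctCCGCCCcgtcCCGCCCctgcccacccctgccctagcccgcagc
Col6a2, chr10:76623631-76623880, minus strand: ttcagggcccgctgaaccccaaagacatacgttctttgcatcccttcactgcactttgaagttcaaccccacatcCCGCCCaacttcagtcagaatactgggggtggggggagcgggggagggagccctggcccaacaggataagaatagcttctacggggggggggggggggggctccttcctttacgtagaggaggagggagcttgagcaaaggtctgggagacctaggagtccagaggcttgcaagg
Col4a1 and Col4a2 starts, chr8:11312785-11312846, plus strand: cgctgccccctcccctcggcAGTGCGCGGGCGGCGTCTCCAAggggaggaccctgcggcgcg

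The core letters bound by hypoxia-inducible factors, ACGTG or GCGTG on either strand, were also looked for in the 250 bases before each start. RefSeq windows were at hand for 26 of the 34 chains, and 11 of them (42.3%) held a match in at least 1 window, against 41.5% of the 27025 genes with a window. The windows printed for Col27a1, Col18a1 and Col6a2 held no match. The window of a second, downstream start of Col6a2 held 1 match. GC boxes were in the windows of 17 of the 26 chains (65.4%), against 35.4% of all genes with a window, a set that includes noncoding genes. Matches of the core and of the GC box did not overlap in any of the 28 windows of the chains. A match is a stretch of letters, and no binding was measured.

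Col4a1, Col4a2 and Col3a1 were the most abundant chains in each of the 3 pools and held 50.9%, 52.3% and 52.7% of all collagen chain FPKM in the Egln1_Tie2Cre, labelled Egln1_Hif2a_Tie2Cre and floxed pools. Summed over all chains, the FPKM was 433 in Egln1_Tie2Cre, 471 in the pool labelled Egln1_Hif2a_Tie2Cre and 486 in floxed, so the Egln1_Tie2Cre sum was 1.12-fold lower than floxed. Basement membrane chains, not fibrillar ones, held the largest share, at 50.1%, 49.9% and 48.0%, and fibrillar chains held 30.7%, 29.7% and 31.5%. Microfibrillar chains summed to 55.8 FPKM in Egln1_Tie2Cre, 73.5 in labelled Egln1_Hif2a_Tie2Cre and 77.7 in floxed. Fibril-associated chains were the only type of the 5 named types above 1.5-fold in their sum between the Egln1_Tie2Cre and floxed pools, at 18.9 FPKM in Egln1_Tie2Cre, 11.05 in labelled Egln1_Hif2a_Tie2Cre and 11.8 in floxed.

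**Figure D1:**
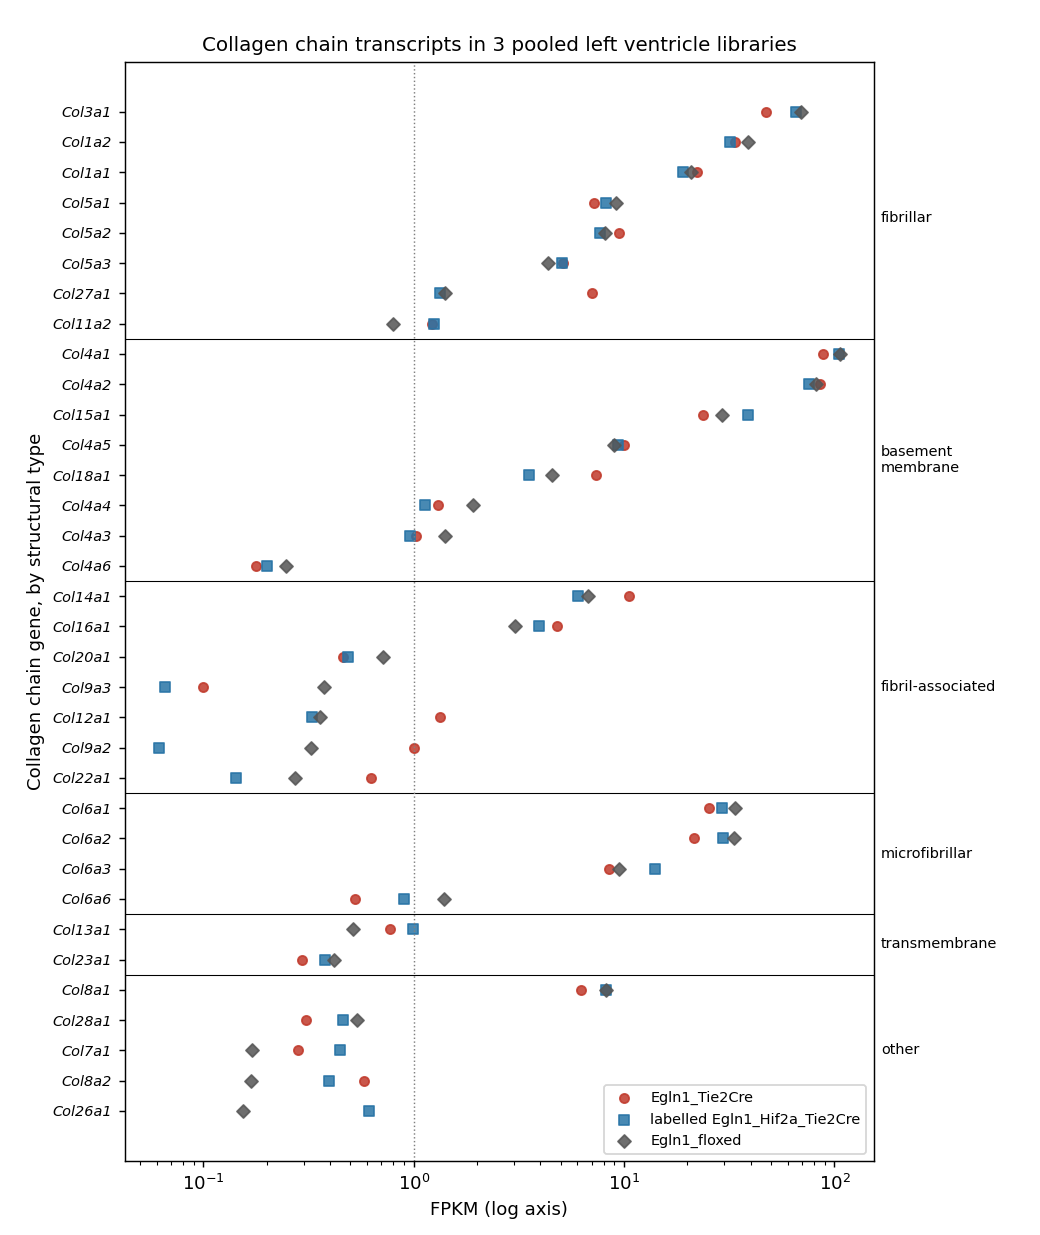
FPKM of the 34 collagen chain genes on a log axis, grouped by structural type, with 1 point for each pooled library (circle, Egln1_Tie2Cre; square, labelled Egln1_Hif2a_Tie2Cre; diamond, Egln1_floxed) and a dotted line at 1 FPKM. Points of a gene lie close together for abundant chains such as Col4a2 (85.2, 75.7 and 81.3 FPKM), whereas the Egln1_Tie2Cre point of Col27a1 stands apart at 7.01 FPKM.

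**Figure D2:**
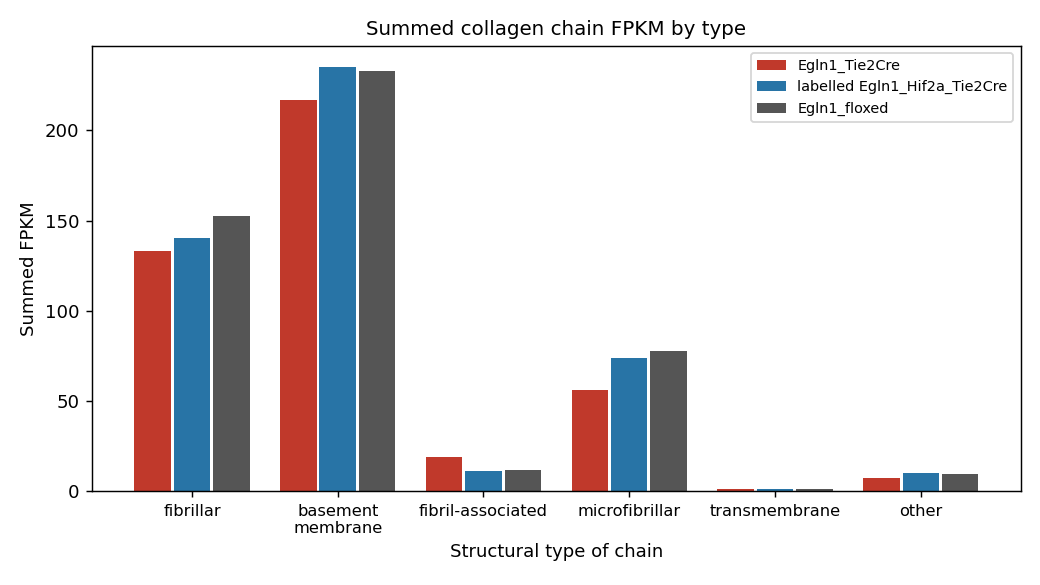
Summed FPKM of the chains of each structural type in the Egln1_Tie2Cre, labelled Egln1_Hif2a_Tie2Cre and Egln1_floxed pools, 1 bar per pooled library. The basement membrane bars are the tallest (217, 235 and 233), and the microfibrillar bar of Egln1_Tie2Cre (55.8) is below those of the other pools.

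Differences were called where FPKM + 1 differed at least 1.5-fold (0.58 on the log2 scale) between pools and the mean FPKM of the pair was at least 1. Adding 1 understates differences of low genes, so a fold set beside a pair of FPKM values is their plain ratio. In Egln1_Tie2Cre against floxed, 21 of the 33 chains in that table passed the filter on low values. Of those 21, 2 were higher (Col27a1 and Col18a1) and 1 was lower (Col6a2), which is 14.3%, against 18.2% of the 11978 genes kept (9.46% higher and 8.73% lower). The median log2 ratio of the 21 chains was -0.14, and that of all genes kept was 0.017. The share of chains called was thus near the background. The lowest q-value of a collagen chain in the authors' deposited table was 0.8828, that of Col27a1, and 0.465% of the genes in that table had a q-value of 0.05 or less. That q-value sets pool against pool, not genotype against genotype.

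The major fibrillar chains were at similar or lower levels in Egln1_Tie2Cre. Col3a1, the chain of the fine type III fibres, had 47.1 FPKM in Egln1_Tie2Cre, 65.5 in labelled Egln1_Hif2a_Tie2Cre and 69.1 in floxed. Egln1_Tie2Cre was thus the low pool, 1.47-fold under floxed and just short of the threshold (log2 ratio -0.54). Col1a1, the alpha1 chain of the thick type I fibres, had 22.1, 19.0 and 20.8 FPKM in the same order. Its partner Col1a2, the alpha2 chain, had 33.7, 32.0 and 39.0 FPKM. Both type I chains were within 1.22-fold of floxed in both other pools. Neither pool had Col1a1, Col1a2 or Col3a1 more than 1.06-fold above floxed.

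Type V chains, which sit inside type I fibres and limit their width, went in different directions by small amounts. Col5a1 had 7.21 FPKM in Egln1_Tie2Cre, 8.25 in labelled Egln1_Hif2a_Tie2Cre and 9.18 in floxed. Col5a2 had 9.47, 7.69 and 8.16 FPKM, and Col5a3 had 5.13, 5.07 and 4.33 FPKM. Among the other fibrillar chains, Col11a2, a chain of type XI collagen best known from cartilage, was near the limit of 1 FPKM at 1.22, 1.25 and 0.797.

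Col27a1 had the largest ratio of the chains kept. It encodes a fibrillar collagen best known from developing cartilage, and had 7.01 FPKM in Egln1_Tie2Cre, 1.33 in labelled Egln1_Hif2a_Tie2Cre and 1.41 in floxed. The Egln1_Tie2Cre pool alone was high, 4.97-fold above floxed, and the pool labelled Egln1_Hif2a_Tie2Cre lay 5.27-fold below it. This was the only collagen chain kept that was at least 2-fold apart on the log2(FPKM + 1) scale in the comparison with floxed, against a background of 7.77% of genes at least 2-fold apart either way. Its mean over the pair is under 5 FPKM, so it is not kept under a filter at that level. The median log2 ratio of the 8 fibrillar chains was 0.14, although the summed fibrillar FPKM was 1.15-fold lower in Egln1_Tie2Cre. That sum is set mainly by Col3a1 and Col1a2. The median counts each chain alike and lies between the log2 ratios of Col1a1 (0.086) and Col5a2 (0.19).

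**Figure D3:**
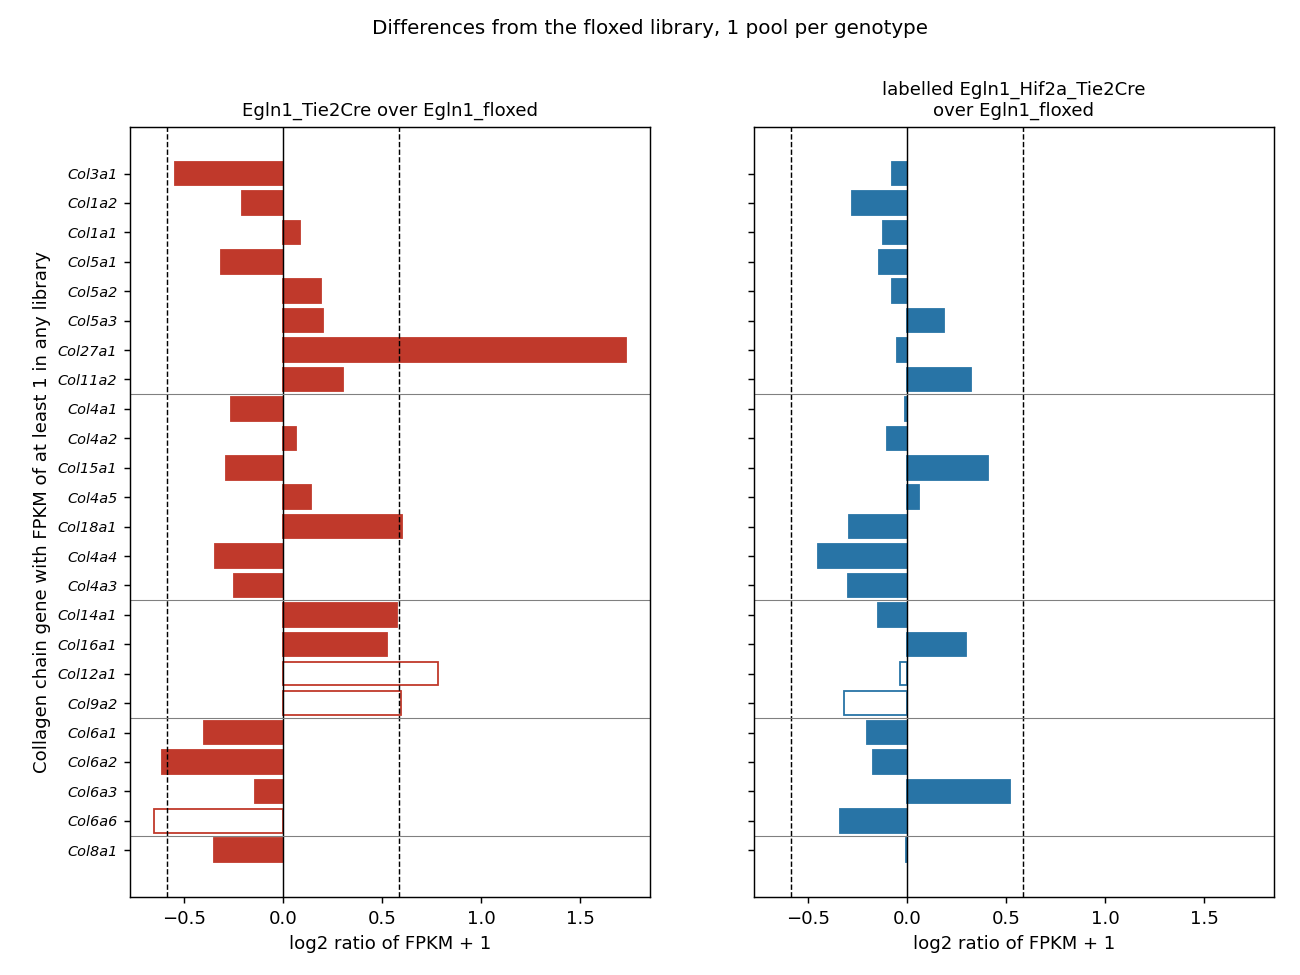
Log2 ratio of FPKM + 1 for the 24 chains with at least 1 FPKM in any library, in Egln1_Tie2Cre over floxed (left) and in labelled Egln1_Hif2a_Tie2Cre over floxed (right). Both panels share the floxed library, dashed lines mark 1.5-fold, and open bars are chains under the filter on low values for that pair. Col27a1 reaches 1.73 in the left panel and -0.048 in the right one.

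Basement membrane chains were led by Col4a1 and Col4a2, which assemble into the network of nearly all basement membranes and whose starts face each other in the sequence above. Col4a1 had 88.1 FPKM in Egln1_Tie2Cre, 105.2 in labelled Egln1_Hif2a_Tie2Cre and 105.8 in floxed. Col4a2 had 85.2, 75.7 and 81.3 FPKM, so the pair were within 1.20-fold of floxed in both other pools. Col4a5, a chain of other type IV networks encoded on the X chromosome, had 10.003, 9.39 and 8.96 FPKM. Col4a3 and Col4a4, best known from the kidney's filter, were low, at 1.03, 0.961 and 1.41 FPKM for Col4a3 and 1.30, 1.13 and 1.91 FPKM for Col4a4. Both were highest in floxed.

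The remaining basement membrane chains differed from each other in direction. Col18a1, whose protein releases the anti-angiogenic fragment endostatin, had 7.38 FPKM in Egln1_Tie2Cre, 3.52 in labelled Egln1_Hif2a_Tie2Cre and 4.52 in floxed. Egln1_Tie2Cre was the high pool, 1.63-fold above floxed, and labelled Egln1_Hif2a_Tie2Cre the low one. The log2 ratio over floxed of 0.60 was just past the threshold. It did not pass after centring by exon length (all exons of a gene merged) and exon number. Col15a1, a related chain of the zone beneath endothelium and around muscle fibres, went the other way, at 23.7 FPKM in Egln1_Tie2Cre, 39.0 in labelled Egln1_Hif2a_Tie2Cre and 29.1 in floxed. Endothelial markers summed to 247, 256 and 223 FPKM over 6 genes in the same order. Of the 6, 5 were above floxed in both other pools, against 50.01% and 49.5% of all genes. Markers differed: Emcn had 21.9, 44.8 and 21.4 FPKM, and Tie1 was about equal at 33.6, 34.2 and 33.4. Cdh5, the marker below floxed, had 56.9, 58.1 and 64.3 FPKM. The part of endothelial cells in the chain values was not tested. In bulk tissue, fewer cells of a type and less RNA per cell cannot be told apart.

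Of the fibril-associated chains, 2 passed the filter and both were higher in Egln1_Tie2Cre, without reaching the threshold. Col14a1, which binds the surface of type I fibres, had 10.6 FPKM in Egln1_Tie2Cre, 6.01 in labelled Egln1_Hif2a_Tie2Cre and 6.76 in floxed. Col16a1, found near small fibres and basement membranes, had 4.79, 3.95 and 3.02 FPKM. Their plain ratios over floxed were 1.56 and 1.59 in Egln1_Tie2Cre, but on the scale of FPKM + 1 the log2 ratios of 0.57 and 0.53 fell short of 0.58.

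The other 5 fibril-associated chains were too low for a call. Col12a1, a fibre-coating chain of tissues under tension, had 1.34 FPKM in Egln1_Tie2Cre, 0.328 in labelled Egln1_Hif2a_Tie2Cre and 0.360 in floxed. Col9a2, best known from cartilage, had 1.005, 0.0614 and 0.324 FPKM, and Col22a1, a chain of the muscle-tendon junction, had 0.623, 0.142 and 0.274 FPKM. Each of these 3 was highest in Egln1_Tie2Cre. Col9a3, whose product joins that of Col9a2, did not follow it, at 0.0999, 0.0660 and 0.375 FPKM. Col20a1 had 0.461, 0.487 and 0.712 FPKM.

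Markers of other tissues were read beside the chains best known from cartilage (Col27a1, Col9a2, Col9a3 and Col11a2). Acan, Matn1, Matn3 and Hapln1, which define cartilage, are not listed in any table. Of the other cartilage markers, Comp, which is also on the list of activated fibroblast markers, had 10.04 FPKM in Egln1_Tie2Cre, 2.17 in labelled Egln1_Hif2a_Tie2Cre and 1.80 in floxed, and Sox9 had 0.736, 0.746 and 0.440. Epicardial and mesothelial markers were also high in the Egln1_Tie2Cre pool, with 24.0, 2.31 and 2.59 summed FPKM over the 3 listed markers of 6. Among them, Krt19 had 13.7, 0.169 and 0.218 FPKM, and Wt1 had 10.2, 1.60 and 2.25. Upk3b was lowest in Egln1_Tie2Cre, at 0.0429, 0.538 and 0.122 FPKM, and Msln, Upk1b and Lrrn4 are not listed. The part of these cells in the higher Col27a1, Col12a1 and Col9a2 values was not tested.

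All 4 microfibrillar type VI chains were lower in Egln1_Tie2Cre than in floxed. Col6a1 had 25.4 FPKM in Egln1_Tie2Cre, 29.2 in labelled Egln1_Hif2a_Tie2Cre and 33.7 in floxed. Col6a2, which joins it in the same trimer, had 21.4, 29.4 and 33.2 FPKM, 1.55-fold lower in Egln1_Tie2Cre than in floxed, and was the only chain called lower. Col6a3, the largest chain of the trimer, had 8.47, 13.96 and 9.43 FPKM, so its high pool was labelled Egln1_Hif2a_Tie2Cre and the other pools were within 1.11-fold. Col6a6, an alternative to Col6a3 in the trimer, had 0.526, 0.901 and 1.40 FPKM. The median log2 ratio of the 3 type VI chains kept was -0.40 in Egln1_Tie2Cre over floxed.

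Fibroblast markers, read beside the lower type III and type VI chains, were split in direction. Over 8 genes they summed to 893 FPKM in Egln1_Tie2Cre, 903 in labelled Egln1_Hif2a_Tie2Cre and 759 in floxed, with 4 of 8 above floxed in Egln1_Tie2Cre and 6 of 8 in labelled Egln1_Hif2a_Tie2Cre. Most of that sum was Gsn, an actin-severing protein also made by other cells, at 570, 500 and 452 FPKM, and Dcn, a small proteoglycan that binds collagen fibres, at 238, 264 and 197. Both were above floxed in both other pools, and leaving them out, chosen after the values had been seen, turns the direction of the Egln1_Tie2Cre sum. Without these genes the other 6 summed to 85.1, 139 and 110 FPKM, 1.30-fold lower in Egln1_Tie2Cre than in floxed. That smaller sum is mostly Dpt and Lum, and 2 of the 6 were above floxed in Egln1_Tie2Cre and 4 in labelled Egln1_Hif2a_Tie2Cre. Lum had 30.3, 48.2 and 41.6 FPKM, Dpt had 36.9, 71.4 and 48.4, Pdgfra had 5.91, 6.75 and 7.92, and Ddr2 had 2.88, 4.55 and 5.03, each lowest in Egln1_Tie2Cre. Tcf21, at 6.12, 6.44 and 5.71 FPKM, and Pdgfrl, at 2.90, 1.90 and 1.73, were above floxed in both other pools. The part of fibroblast number in the chain values was not tested. The 6 markers of activated fibroblasts summed to 121, 131 and 96.3 FPKM, and to 111, 129 and 94.5 without Comp. Of the 6, 4 were above floxed in Egln1_Tie2Cre and 5 in labelled Egln1_Hif2a_Tie2Cre. The largest part of the sum was Acta2, at 51.4, 90.6 and 64.1 FPKM, lowest in Egln1_Tie2Cre. It encodes a smooth muscle actin and is not particular to fibroblasts. Meox1 had 9.91, 11.7 and 5.40 FPKM, and Cthrc1 had 0.607, 0.148 and 0.410. Postn, which encodes the matrix protein periostin of activated fibroblasts, had 47.9, 24.1 and 22.5 FPKM, 2.13-fold higher in Egln1_Tie2Cre than in floxed, while Fap, a surface protease of the same cells, had 1.44, 2.55 and 2.03 FPKM. Pericyte and smooth muscle markers summed to 199, 213 and 197 FPKM over 6 genes, most of it Rgs5 at 147, 160 and 136. Of the 6, only 1 was above floxed in Egln1_Tie2Cre and 2 in labelled Egln1_Hif2a_Tie2Cre. Pdgfrb, Cspg4, Myh11 and Cnn1 were below floxed in both other pools.

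Chains outside these types were low, apart from Col8a1. It encodes a short-chain collagen of the layer beneath vascular endothelium and had 6.24 FPKM in Egln1_Tie2Cre, 8.17 in labelled Egln1_Hif2a_Tie2Cre and 8.20 in floxed. Its partner chain Col8a2 had 0.578, 0.397 and 0.168 FPKM. Altogether 10 chains were under 1 FPKM in every library with a value, between 0.0660 and 0.992 FPKM. These were Col4a6, Col9a3, Col20a1, Col22a1, both transmembrane chains (Col13a1 and Col23a1), Col7a1 of skin anchoring fibrils, Col8a2, Col26a1 and Col28a1. Col13a1 was the highest of them, at 0.772, 0.992 and 0.516 FPKM. Col26a1 had 0.610 FPKM in labelled Egln1_Hif2a_Tie2Cre and 0.155 in floxed, and no value for Egln1_Tie2Cre.

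In the pool labelled Egln1_Hif2a_Tie2Cre, the collagen chains kept were within 1.5-fold of the floxed values on the scale of FPKM + 1. Of 34 chains, 22 passed the filter, and 0 of these were at least 1.5-fold higher or lower, against 7.7% of the 11888 genes kept. At that background few of 22 chains would be past the threshold, so 0 is near the background. Their median log2 ratio was -0.089, with 6 above floxed and 16 below. That of all genes kept was -0.0038, with 5878 above floxed and 6010 below. After centring by exon length and exon number the median of the chains changed sign, to 0.018, so the direction depends on the processing. Without that centring, the ratios nearest the threshold were those of Col6a3 (log2 ratio 0.52, 1.48-fold higher) and Col4a4 (-0.45). In the authors' deposited table no collagen chain had a q-value below 0.9996 in this comparison, where 0.0135% of genes had 0.05 or less.

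Against the Egln1_Tie2Cre pool, the pool labelled Egln1_Hif2a_Tie2Cre had 5 of 20 chains past the threshold (25%), against 19.3% of the 11999 genes kept (9.67% higher and 9.64% lower). The share was again near the background. The higher ones were Col15a1 (1.65-fold) and Col6a3 (1.65-fold), and the lower ones were Col27a1 (5.27-fold), Col18a1 (2.10-fold) and Col14a1 (1.76-fold). After centring by exon length and exon number Col14a1 was no longer past the threshold, and Col3a1 and Col6a2 were, both higher. The median log2 ratio was -0.043, and -0.023 over all genes kept. In the authors' deposited table the lowest q-value of a chain was 0.6308, again that of Col27a1, with 0.571% of genes at 0.05 or less. These comparisons share libraries, so they are not separate evidence.

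**Figure D4:**
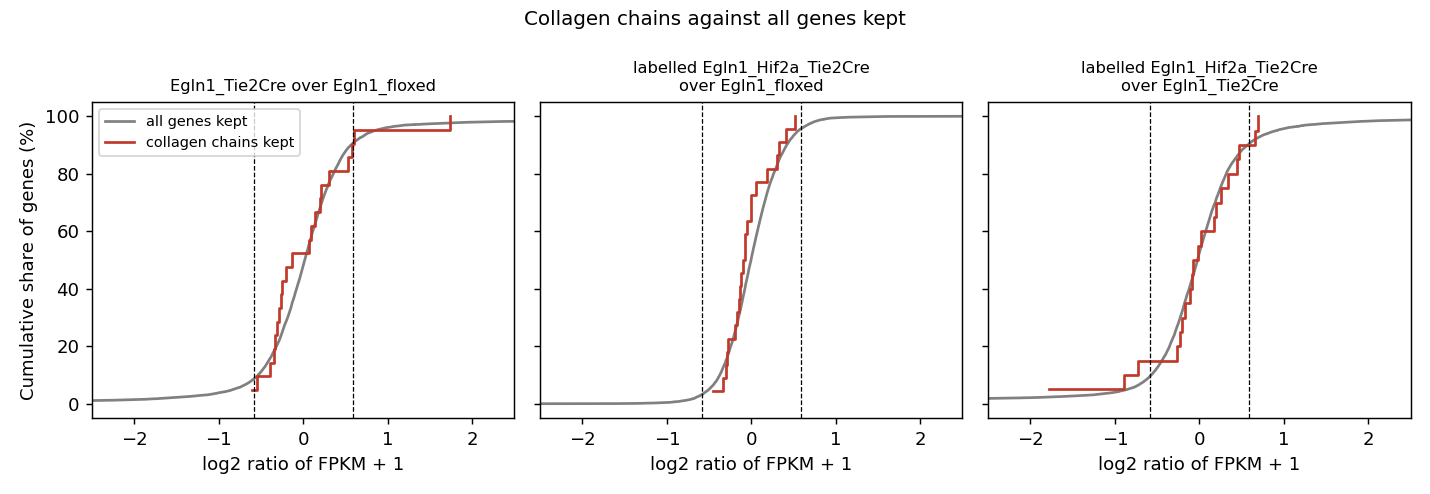
Cumulative share of genes (percent) against the log2 ratio of FPKM + 1 in each of the 3 comparisons, for all genes kept (grey) and the collagen chains kept (red, 21, 22 and 20 chains from left to right), with dashed lines at 1.5-fold. The red steps follow the grey curve, with medians of -0.14, -0.089 and -0.043 against 0.017, -0.0038 and -0.023, and the Col27a1 step lies at 1.73 in the left panel and -1.78 in the right one. The axis is limited to 2.5 on either side.

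Pairs of chains were compared within each pool, as ratios of FPKM, mostly chains of the same protein. Type I collagen holds more alpha1 than alpha2 chains, yet Col1a1 had fewer FPKM than Col1a2 in every pool, with ratios of 0.657 in Egln1_Tie2Cre, 0.594 in labelled Egln1_Hif2a_Tie2Cre and 0.533 in floxed. Col1a1 and Col3a1 belong to different collagens, and their ratio was 0.470, 0.290 and 0.301, highest in Egln1_Tie2Cre. Col4a1 to Col4a2 was 1.03, 1.39 and 1.30, although type IV trimers of these chains hold more of the first. Col5a1 to Col5a2 was 0.762, 1.07 and 1.13, and Col6a1 to Col6a2 was 1.18, 0.993 and 1.014. Col6a3 to Col6a1 was 0.334, 0.478 and 0.280, highest in labelled Egln1_Hif2a_Tie2Cre.

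Chains with facing gene starts were at near levels for Col4a3 and Col4a4 but not for Col4a5 and Col4a6. Starts of Col4a4 and Col4a3 face each other 72 bases apart in GENCODE M21, and their ratio was 1.26 in Egln1_Tie2Cre, 1.18 in labelled Egln1_Hif2a_Tie2Cre and 1.36 in floxed. Starts of Col4a5 and Col4a6 also face each other, 1309 bases apart, yet Col4a5 was 56.2, 46.9 and 36.2 times as high. Those ratios rest on the low values of Col4a6, at 0.178, 0.200 and 0.248 FPKM. Col8a1 to Col8a2, which do not share a locus, was 10.8, 20.6 and 49.0, set mainly by the low values of Col8a2.

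Genes for collagen biosynthesis and turnover included several past the 1.5-fold threshold in Egln1_Tie2Cre. Of 43 such genes, 41 are listed and 34 passed the filter in Egln1_Tie2Cre against floxed, where 7 were at least 1.5-fold higher and 2 lower (26.5%, against 18.2% of genes kept), with a median log2 ratio of 0.17. P3h2 (Leprel1 in the files), which hydroxylates prolines of collagen, had 5.31 FPKM in Egln1_Tie2Cre, 1.82 in labelled Egln1_Hif2a_Tie2Cre and 1.28 in floxed. Mmp14, a membrane-bound collagenase, had 9.30, 4.56 and 4.003 FPKM. Ddr1, a receptor that collagen activates, had 16.3, 7.39 and 10.6, short of the threshold in Egln1_Tie2Cre over floxed (log2 ratio 0.57). Pcolce2, an enhancer of procollagen cleavage, had 15.2, 8.73 and 6.51 FPKM. Serpinh1, the chaperone of procollagen, was lowest in Egln1_Tie2Cre, at 59.6, 142.8 and 98.9 FPKM. In labelled Egln1_Hif2a_Tie2Cre against floxed, 1 of 34 was past the threshold (2.94%, against 7.7%), namely P4ha1, a subunit of the main collagen prolyl hydroxylase and a known target of hypoxia-inducible factors, at 23.2, 36.3 and 16.3 FPKM. In labelled Egln1_Hif2a_Tie2Cre against Egln1_Tie2Cre, 3 of 34 were higher and 7 lower (29.4%, against 19.3%).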

How the data were processed

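Total RNA was isolated from left ventricles, and similar amounts from 3 mice were pooled by genotype, per the labels. The authors deposited 3 tables, 1 for each pair of libraries. They hold FPKM per gene for both libraries, a ratio (fold change) and a q-value, per the file headers. TopHat2 and Cuffdiff are named, per the submitters' processing notes; the sources used here give no version, build or annotation. The FPKM of a library was the same in both of its tables, except 1 gene of the floxed library (relative difference 0.00088). Depth is unknown.

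Computed here, in Python 3.11.15 with pandas 2.3.3, were log2 ratios of FPKM + 1 (pseudocount of 1) where the pair averaged 1 FPKM or more, calls at 1.5-fold, medians and sums. The call counting was tested on simulated data. Near-identical stretches were sought with BLAST 2.17.0 (95% identity, at least 100 bases) among GENCODE M21 transcripts. Members, lists and thresholds were chosen with earlier results of these data known. All members are named, with full values where any library reached 1 FPKM. From the biosynthesis list the 6 genes with the largest log2 ratio are named. Alternatives tried were a 2-fold threshold, a pseudocount of 0.1, and a filter at 5 FPKM or none. Others were centring on the median of all genes kept or by exon length and exon number. Exon length is that of all exons of a gene merged, from GENCODE M21. A background of coding genes with at least 2 exons was added after seeing the data. Sums of marker lists without Gsn and Dcn, without C1qa or without Comp were chosen after the values had been seen.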

Additional observations from a re-analysis of the deposited data

How the results depend on the processing

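Of 63 alternative values, 45 stayed close to the reported one (counts within 1.5 times, medians within 0.1, shares within 1 point, all on their own scale) and 18 moved. The cause was not tested. Chains past the threshold in Egln1_Tie2Cre against floxed numbered 5 with a pseudocount of 0.1 (adding Col14a1 and Col16a1), 6 without a filter (adding Col12a1, Col9a2 and Col6a6) and 1 at 2-fold (Col27a1). With a mean FPKM of at least 5 they were 2 (Col18a1 higher, Col6a2 lower), since Col27a1 is not kept. After centring by exon length and exon number they were again 3, with Col3a1 (lower) in place of Col18a1. In labelled Egln1_Hif2a_Tie2Cre against floxed they numbered 2 with a pseudocount of 0.1 (Col11a2 higher, Col4a4 lower) and 1 after that centring (Col6a3, higher). Against Egln1_Tie2Cre they numbered 1 at 2-fold (Col27a1), 7 without a filter (adding Col12a1 and Col9a2, lower), 4 with a mean FPKM of at least 5 (without Col27a1) and 6 after that centring, which added Col3a1 and Col6a2 (higher) and lost Col14a1.

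The amount that centring subtracted from the ratios of the chains had a median of 0.077, -0.12 and -0.18 in the order Egln1_Tie2Cre over floxed, labelled Egln1_Hif2a_Tie2Cre over floxed and labelled Egln1_Hif2a_Tie2Cre over Egln1_Tie2Cre. In the first comparison the microfibrillar median became -0.57. In the second the median of all chains became 0.018 and changed sign, with 0.078 for fibrillar, 0.022 for basement membrane, 0.20 for fibril-associated and -0.065 for microfibrillar chains. In the last the medians were 0.14 for all chains (a change of sign), 0.14 for fibrillar, 0.083 for basement membrane, -0.30 for fibril-associated and 0.63 for microfibrillar chains, and the median of all chains was 0.078 with a mean FPKM of at least 5. Transmembrane chains gave no median, since none passed the filter. With coding genes of at least 2 exons as background, 15.8%, 6.79% and 16.7% of genes were past 1.5-fold. No paired analysis was possible because each genotype has 1 library, and none could be left out.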

Other observations

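Proteins with a collagen-like stretch that are not collagen chains were read as a separate list of 30 genes, added after the collagen chain values had been seen. Of these, 22 are listed, and 6 of the 22 were above floxed in Egln1_Tie2Cre and 13 of the 22 in labelled Egln1_Hif2a_Tie2Cre. Of all genes in the tables, 50.01% and 49.5% were above floxed in the same order. C1qtnf9, a secreted relative of adiponectin, had 6.73 FPKM in Egln1_Tie2Cre, 33.6 in labelled Egln1_Hif2a_Tie2Cre and 23.9 in floxed, so Egln1_Tie2Cre was 3.55-fold lower than floxed. The 3 chains of complement C1q, made largely by macrophages, were lowest in Egln1_Tie2Cre and highest in labelled Egln1_Hif2a_Tie2Cre: C1qa had 28.5, 60.3 and 42.1 FPKM, C1qb had 27.03, 50.2 and 35.3, and C1qc had 21.4, 41.3 and 32.6. The 4 listed macrophage markers other than C1qa summed to 28.8, 33.6 and 32.0 FPKM, with 1 of 4 above floxed in Egln1_Tie2Cre. Csf1r had 10.3, 10.8 and 10.2 FPKM. Cd68 had 4.19, 5.23 and 6.23, Lyve1 had 8.60, 11.7 and 8.98, and Mrc1 had 5.71, 5.90 and 6.57, each lowest in Egln1_Tie2Cre. The part of macrophages in the C1q values was not tested. Emilin1, a glycoprotein of elastic fibres, had 11.5, 12.9 and 11.9 FPKM, and Colec11, a soluble lectin, had 12.9, 14.0 and 13.4, so the pools were within 1.13-fold of each other for both.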
